A study of Mus musculus with 12 samples.

Results

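Histone deacetylases remove acetyl groups from lysines of histones and other proteins. The genes described here are 10 zinc-dependent deacetylases, Hdac1, Hdac2, Hdac3, Hdac4, Hdac5, Hdac6, Hdac7, Hdac8, Hdac9 and Hdac11. Hdac10 is not among them. They were found by an exact match of their names among the 55487 genes of the deposited gene table, where each name occurred once. The transcript table held 96 transcripts of these genes among 142699. The class I enzymes (Hdac1, Hdac2, Hdac3 and Hdac8) are mainly nuclear, and the first 3 work as the catalytic subunits of corepressor complexes. The class IIa enzymes (Hdac4, Hdac5, Hdac7 and Hdac9) have weak activity of their own, bind MEF2 transcription factors and leave the nucleus when calcium-dependent kinases phosphorylate them, which makes them a link between neuronal activity and transcription. Hdac6 (class IIb) deacetylates tubulin in the cytoplasm, and Hdac11 is the sole class IV enzyme.

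The data were bulk RNA-seq of mouse retina in 6 groups of 2 libraries, 12 in all. Retinas of WT mice (B6J, that is C57BL/6J), of mice given the pU6-shPax6-GFP AAV2.7m8 vector (shPax6) and of Jnk3-/- mice (JNK3 KO) each received an intravitreal injection of 1 µL PBS or of 1 µL of 40 mM NMDA, an agonist that overexcites retinal neurons through NMDA-type glutamate receptors. The comparison asks how these genes responded to the excitotoxin, and how the response differed with less Pax6, a transcription factor, or without JNK3, a stress-activated kinase that is mainly neuronal. The paper names more than 3 retinas as the source of the RNA and does not say whether this holds for each library. The p-values rest on the spread between the 2 libraries of a group, shared over all 6 groups.

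The U6 promoter of the shPax6 vector is active in most cell types, and Jnk3-/- mice carry the knockout in every cell. The shPax6 mice were 2 months old at delivery of the vector. The ages of the others, the sex of the animals and the time between NMDA and collection are not given in the sources used here. No library of retinas given the shScramble vector is among the 12, so infection and knockdown cannot be told apart. In whole retina, fewer cells of a type and less RNA per cell cannot be told apart either.

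Values are FPKM, fragments per kilobase of transcript scaled to the size of the library, so they are levels per length. In the WT NMDA libraries a trend with gene length, given below, limits comparison between genes of unlike length. Pax6 was lower in shPax6 than in WT retinas under PBS, with 94.6 and 92.8 against 173 and 177 FPKM (log2 fold change -0.90, adjusted p = 6.04e-05). After NMDA it was not lower in shPax6, with 67.5 and 58.7 against 55.4 and 53.8 FPKM in WT, where NMDA itself lowered Pax6 (-1.68, adjusted p = 1.21e-07). Mapk10, the gene of JNK3, had 9.47 and 8.75 FPKM in the knockout under PBS, against 42.8 and 50.7 FPKM in WT (-2.34, adjusted p = 0.0215). It was as low in WT after NMDA, with 8.98 and 6.00 FPKM. The knockout after NMDA had 6.65 and 13.8 FPKM, so some Mapk10 signal remained in it. The 2 WT NMDA libraries stood apart from the other 10. Their FPKM summed to 805630 and 820180 over all genes, against 541210 to 576920 elsewhere, short genes were higher and long genes lower in them, and neutrophil markers summed to 1972 and 2014 FPKM against 229 and 253 in WT PBS (5 of 8 rose). Of the other marker lists in WT, 5 of 8 rod genes rose and 1 fell, 3 of 7 Müller glia genes rose and 4 fell, 4 of 9 microglia and macrophage genes rose and 4 fell, 2 of 7 endothelial genes rose and 2 fell, 3 of 5 tested RPE genes rose and 2 fell, and 2 of 4 tested lens genes rose. These counts depended on the scale. On TPM, where each library is rescaled to the same FPKM sum, 1 rod gene rose and 5 fell and 0 RPE genes rose and 2 fell, and after quantile normalization 1 rod gene rose and 7 fell. Rod markers were the most abundant markers in every library (21270 to 36273 FPKM in sum), whereas Best1 of the retinal pigment epithelium (RPE) and Lim2 and Mip of the lens stayed under 1 FPKM.

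All 10 genes were expressed in every group. In WT PBS retinas Hdac5 was the highest at 91.0 and 96.1 FPKM, followed by Hdac11 (50.6 to 51.7 FPKM), Hdac2 (42.2 to 44.4), Hdac3 (36.3 to 39.1), Hdac1 (32.8 to 33.8), Hdac6 (23.6 to 26.7), Hdac9 (16.1 to 17.2), Hdac7 (12.3 to 12.9), Hdac4 (7.47 to 8.11) and Hdac8 (5.52 to 6.12). No neighbours in this order overlapped between their libraries. In shPax6 PBS retinas Hdac2, Hdac11, Hdac3 and Hdac1 overlapped each in turn, between 29.4 and 44.9 FPKM, as did Hdac6 with Hdac9 and Hdac4 with Hdac8. After NMDA in WT, Hdac5 led at 163 and 189 FPKM and Hdac9 came last at 3.96 and 2.73 FPKM, overlapping Hdac4.

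**Figure D1:**
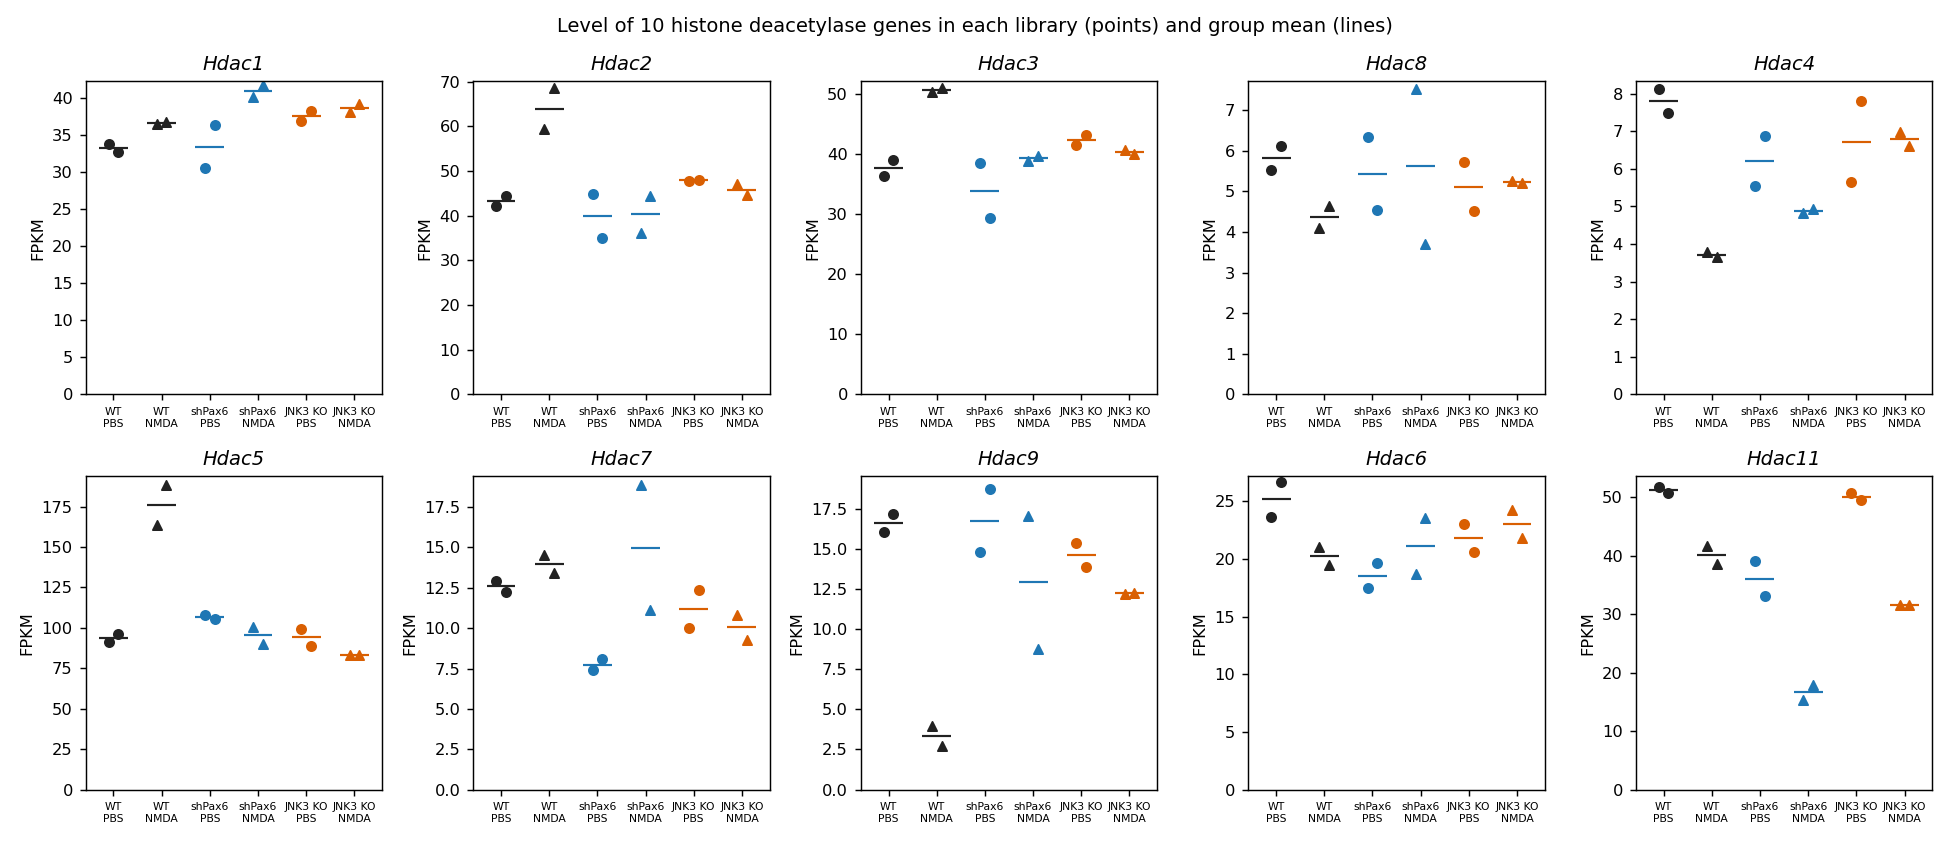
FPKM of each of the 10 genes (y axis, linear from 0) in the 12 libraries by group (x axis), with circles for PBS, triangles for NMDA and a line at the group mean. Hdac5 and Hdac9 stand apart in WT NMDA, and Hdac11 is lower after NMDA than after PBS in all 3 genotypes.

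The order depended on which transcripts were counted. Of the Hdac5 signal in WT PBS retinas, 28.7 FPKM on average came from protein-coding transcripts and 69.2% came from others, among them Hdac5-205, a transcript annotated as a target of nonsense-mediated decay, at 23.8 FPKM. By protein-coding transcripts alone, Hdac11 (47.0 to 48.1 FPKM) and Hdac2 (40.3 to 41.9 FPKM) led in WT PBS, and Hdac5 (26.4 to 31.0 FPKM) overlapped Hdac1 (26.8 to 27.3 FPKM). Hdac7 was also mixed, with 52.2% of its level from transcripts other than protein-coding ones. Hdac8, Hdac2, Hdac11 and Hdac4 were at 0.326%, 4.97%, 7.10% and 9.78% by the same measure. Over all transcripts, the 10 genes together summed to 321 and 333 FPKM in WT PBS and to 399 and 427 FPKM in WT NMDA, but to 0.0594% and 0.0604%, then 0.0495% and 0.0521% of the FPKM of the library, so the direction of the sum depended on the scale.

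Promoter sequences are shown for Hdac5 and Hdac9, the 2 genes with the largest rise and the largest fall after NMDA in WT. They are the 250 bases before the RefSeq start on GRCm38.p6, printed 5′ to 3′ on the strand of the gene, with capitals for the letters of any of 7 motifs, which were searched on both strands. The Hdac5 gene spans chr11:102194432-102230166 and the Hdac9 gene chr12:34047580-34917095. The Hdac5 window lies on the minus strand at chr11:102230173-102230422, and both Hdac9 starts on the minus strand at chr12:34528890-34529139 (near the start of the main coding transcript) and chr12:34917096-34917345 (the far start).
Hdac5: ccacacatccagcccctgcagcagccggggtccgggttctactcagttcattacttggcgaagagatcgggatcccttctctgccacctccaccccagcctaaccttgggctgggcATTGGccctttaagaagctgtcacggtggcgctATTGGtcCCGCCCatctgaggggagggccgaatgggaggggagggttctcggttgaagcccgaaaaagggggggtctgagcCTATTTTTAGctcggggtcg
Hdac9, near start: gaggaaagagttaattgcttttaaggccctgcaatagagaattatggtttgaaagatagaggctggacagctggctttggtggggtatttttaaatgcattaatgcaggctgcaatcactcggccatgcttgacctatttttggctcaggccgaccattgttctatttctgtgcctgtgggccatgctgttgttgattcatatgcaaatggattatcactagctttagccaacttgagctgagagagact
Hdac9, far start: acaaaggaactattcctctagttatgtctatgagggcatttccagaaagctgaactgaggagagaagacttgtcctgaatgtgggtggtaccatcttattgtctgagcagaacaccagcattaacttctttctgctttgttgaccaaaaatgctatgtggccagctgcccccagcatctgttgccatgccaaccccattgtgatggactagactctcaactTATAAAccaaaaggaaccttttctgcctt
The Hdac5 window held 12 CG dinucleotides and 60.8% G and C, 1 GC box, 2 CCAAT boxes and 1 MEF2 site. The MEF2 site, searched by its usual consensus, occurred in 0.508% of the 32851 RefSeq windows of this length. The GC box, searched as GGGCGG, occurred in 32.7% of them. The letters CCAAT were in 33.9%. The near Hdac9 window held 2 CG dinucleotides, 43.6% G and C and none of the 7 motifs, and the far window held 0 CG dinucleotides and 1 TATA box, searched as TATAAA and found in 12.4% of windows. The median window had 6 CG dinucleotides and 52.4% G and C. RefSeq windows were at hand for 8 of the 10 genes, 12 windows in all, of which 6 held a GC box, 5 a CCAAT box, 2 a TATA box and 1 the MEF2 site. An E-box, searched as CACGTG, was in 0 of the 12 and in 6.02% of all windows. The CRE, searched as TGACGTCA, was in 0 of the 12 and in 1.55% of all. The AP-1 site (the letters TGAGTCA, which read TGACTCA on the other strand) was in 0 and in 4.46%. A match describes letters and not a bound site. Of 20 Hdac5 transcripts 8 began within 200 bases of the Hdac5 start, and of 12 Hdac9 transcripts 1 began there at each start, of which only the one at the near start, Hdac9-201, exceeded 1 FPKM.

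In WT retinas NMDA changed 6 of the 10 genes. Hdac5, Hdac2 and Hdac3 rose, and Hdac9, Hdac4 and Hdac11 fell. A gene was called where limma's adjusted p was under 0.05, and by this rule 26% of all 16471 tested genes rose and 33.8% fell, so 3 and 3 of 10 are near the background. The median log2 fold change was -0.09 for the 10 genes and -0.09 for all genes. By a looser p with a fold limit, that is an unadjusted p under 0.05 with a change of more than 1 on the log2 scale and a mean above 1 FPKM in either group, Hdac9 and Hdac4 passed among the 10, against 35.3% of all genes. The study set these limits on p and fold for transcripts and added one on the variance-mean ratio, which was not applied here. Fold changes here and throughout are on the log2(FPKM + 0.1) scale.

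Among the class I genes, Hdac2 rose from 42.2 and 44.4 to 59.5 and 68.5 FPKM. This is a log2 fold change of 0.56 (SE 0.13, adjusted p = 0.00521), which fell to -0.01 when libraries were rescaled to the same FPKM sum (TPM) and to 0.18 after quantile normalization, uncalled in both. Hdac3, the catalytic subunit of the NCoR/SMRT complexes, rose from 36.3 and 39.1 to 50.4 and 51.1 FPKM (0.43, SE 0.11, adjusted p = 0.00789), but it turned to -0.14 on TPM and lost its call without WT PBS replicate 1 (0.38, adjusted p = 0.0585). The WT NMDA libraries of both genes lay above all other 10 libraries. Hdac1, the close paralogue of Hdac2, moved from 33.8 and 32.8 to 36.5 and 36.8 FPKM and did not pass the test (0.14, adjusted p = 0.185), with -0.43 and a call on TPM. Hdac8, an X-linked enzyme that deacetylates cohesin, stood at 5.52 and 6.12 FPKM before and 4.09 and 4.64 FPKM after NMDA and did not pass it either (-0.41, 95% interval -1.10 to 0.29).

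The class IIa genes split. Hdac5, which shuttles out of the nucleus on activity, rose from 91.0 and 96.1 to 163 and 189 FPKM, a fold of 1.88 (log2 fold change 0.91, SE 0.09, adjusted p = 1.62e-05). It stayed called in each of 9 alternative settings, with 0.33 on TPM and 0.24 after quantile normalization as the lowest. Hdac9, a MEF2 repressor, fell from 16.1 and 17.2 to 3.96 and 2.73 FPKM, to 0.203 of its PBS level (-2.30, SE 0.29, adjusted p = 1.00e-04), and it also stayed called in all 9. Both WT NMDA libraries lay below every other library for this gene. Hdac4, another MEF2 corepressor, fell from 8.11 and 7.47 to 3.79 and 3.65 FPKM (-1.05, SE 0.18, adjusted p = 0.00079), and it turned to 0.15 after a length correction, in which the dependence on spliced length is subtracted from every library. Hdac7 stood at 12.9 and 12.3 FPKM before and 14.5 and 13.4 FPKM after NMDA (0.15, adjusted p = 0.60) and turned to -0.42 on TPM. Hdac4 shares 3536 exonic bases with a lincRNA on the opposite strand and Hdac7 29 bases with Slc48a1, and whether counting used strand is not given in the sources used here.

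Of the remaining classes, Hdac6 moved from 23.6 and 26.7 to 21.02 and 19.5 FPKM and missed the threshold (-0.31, adjusted p = 0.0693), turning to 0.22 after the length correction. Hdac11 fell from 51.7 and 50.6 to 41.6 and 38.5 FPKM (-0.35, SE 0.10, adjusted p = 0.0122). Its call was lost without WT PBS replicate 1 (-0.34, adjusted p = 0.0626) and without WT NMDA replicate 2 (-0.30, adjusted p = 0.0735), and after the length correction (-0.17, adjusted p = 0.179).

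**Figure D2:**
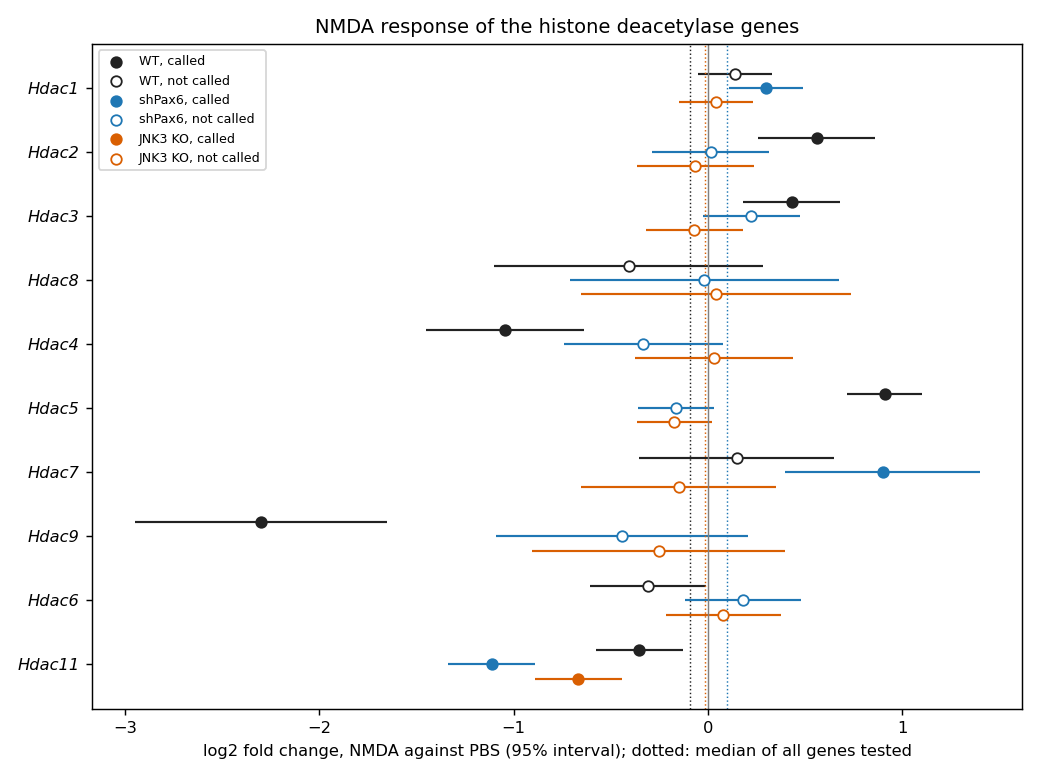
Log2 fold change of NMDA against PBS (x axis) for each gene (y axis) in WT (black), shPax6 (blue) and JNK3 KO (orange) retinas, with 95% intervals, filled where the adjusted p was under 0.05 and dotted lines at the median of all tested genes. Hdac9 (-2.30) and Hdac5 (0.91) mark the ends of the WT response, whose values for Hdac1, Hdac2, Hdac3 and Hdac7 turn negative on TPM and those for Hdac4 and Hdac6 positive after a length correction, while Hdac11 was called lower in all 3 genotypes.

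The rise of Hdac5 lay mostly in 2 short retained-intron transcripts at the 3′ end. In the WT NMDA libraries non-coding transcripts at the 3′ end took a larger share over all genes too, as given below. Non-coding transcripts (annotated as retained intron or processed transcript) that end within 200 bases of the end of the most abundant coding transcript went from 3.98 and 9.33 to 91.6 and 118 FPKM for Hdac5, while its protein-coding transcripts went from 31.0 and 26.4 to 38.5 and 38.5 FPKM. Hdac5-218, of 1008 bases, rose from 1.25 and 7.47 to 69.3 and 76.1 FPKM (adjusted p = 0.00563), and Hdac5-211, of 754 bases, from 0.62 and 0 to 21.8 and 41.7 FPKM (adjusted p = 0.0151). The full-length coding Hdac5-204 stood at 21.8 and 12.9 FPKM before and 35.9 and 19.5 FPKM after, overlapping and not called (adjusted p = 0.242). Hdac5-205 fell from 22.1 and 25.5 to 1.37 and 11.3 FPKM (adjusted p = 0.0336), and Hdac5-217, a retained-intron transcript away from the 3′ end, from 15.9 and 18.7 to 3.24 and 3.62 FPKM (-2.30, adjusted p = 0.000374).

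Non-coding transcripts at the 3′ end moved in both directions. Of 9 tested ones of the 10 genes 4 rose and 3 fell in WT, against 27% and 8.5% of all 2705 tested transcripts of this kind. The risers were the 2 of Hdac5 and 1 each of Hdac2 and Hdac3, of 754 to 1811 bases. Those that fell were the longer Hdac5-216 (2.11 and 1.86 to 0.54 and 0.60 FPKM, adjusted p = 0.00585), Hdac6-204 (2.26 and 2.82 to 0.08 and 0.20 FPKM, adjusted p = 0.0439) and Hdac7-213 (1.92 and 2.32 to 0.46 and 0.41 FPKM, adjusted p = 0.0073), of 5037 to 5406 bases. Hdac2-204 was listed at 0 in both WT PBS libraries and stood at 5.25 and 15.9 FPKM in WT NMDA (adjusted p = 0.000404), and in the other 8 libraries it did not exceed 0.20 FPKM. Its coding partner Hdac2-201 moved from 37.9 and 39.7 to 49.9 and 41.8 FPKM and was not called. Hdac3-203, a retained-intron transcript at the 3′ end, rose from 5.10 and 4.05 to 17.8 and 17.7 FPKM (1.94, SE 0.21, adjusted p = 0.000211). For Hdac7 such transcripts together went from 5.55 and 5.10 to 11.6 and 11.3 FPKM, and the protein-coding ones from 6.40 and 5.64 to 2.89 and 2.06 FPKM.

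For Hdac9 the fall was mainly in the transcripts annotated as coding. Hdac9 is known to be made in a short form, which binds MEF2 and lacks the deacetylase domain, besides the full-length enzyme. Hdac9-201, with a coding length of 1764 bases over 12 exons, fell from 6.24 and 5.35 to 0.10 and 0.19 FPKM (-4.61, SE 0.29, adjusted p = 1.27e-05). Hdac9-208, coding as well, went from 3.83 and 5.78 FPKM to being listed at 0 in both libraries. The longer Hdac9-205, with a coding length of 3192 bases over 25 exons, fell from 1.57 and 1.43 to 0.40 and 0.47 FPKM (-1.58, SE 0.44, adjusted p = 0.0241). Hdac9-212, which is not in the annotation used here, held 82.4% of the Hdac9 level in WT NMDA at 3.43 and 2.08 FPKM, against 3.42 and 3.50 FPKM in WT PBS, and was not called.

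Hdac6 showed a shift between near-identical coding transcripts. Hdac6-201, which shares its coding length of 3447 bases and its 29 exons with Hdac6-202, went from 3.87 and 2.20 FPKM to being listed at 0 in both WT libraries (adjusted p = 0.000313), and from 5.01 and 4.28 to 0.27 and 0.42 FPKM in shPax6 retinas (-3.43, adjusted p = 0.00945). Hdac6-202 stood at 11.3 and 11.4 FPKM before and 17.34 and 17.98 FPKM after NMDA in WT and was not called (adjusted p = 0.106). The split between transcripts this alike is uncertain, and the sum of these 2 was not tested. Over all protein-coding Hdac6 transcripts the sum did not pass the test in WT (0.0424, adjusted p = 0.804) or shPax6 retinas (0.20, adjusted p = 0.301).

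The JNK3 KO and shPax6 libraries lacked the WT pattern of Hdac5. Hdac5-218 lay between 0 and 0.41 FPKM in the 4 shPax6 libraries and between 4.88 and 8.48 FPKM in the 4 JNK3 KO libraries. Its response in WT differed from that in shPax6 (adjusted p = 0.0161) and in JNK3 KO (adjusted p = 0.0215) retinas. Hdac9-201 stood at 6.68 and 7.64 FPKM under PBS and 4.00 and 5.31 FPKM under NMDA in shPax6, and at 3.94 and 4.06, then 4.73 and 6.01 FPKM in JNK3 KO retinas. Its response in WT differed from both by -3.99 (SE 0.41, adjusted p = 0.00041) and -5.02 (SE 0.41, adjusted p = 9.2e-05).

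**Figure D3:**
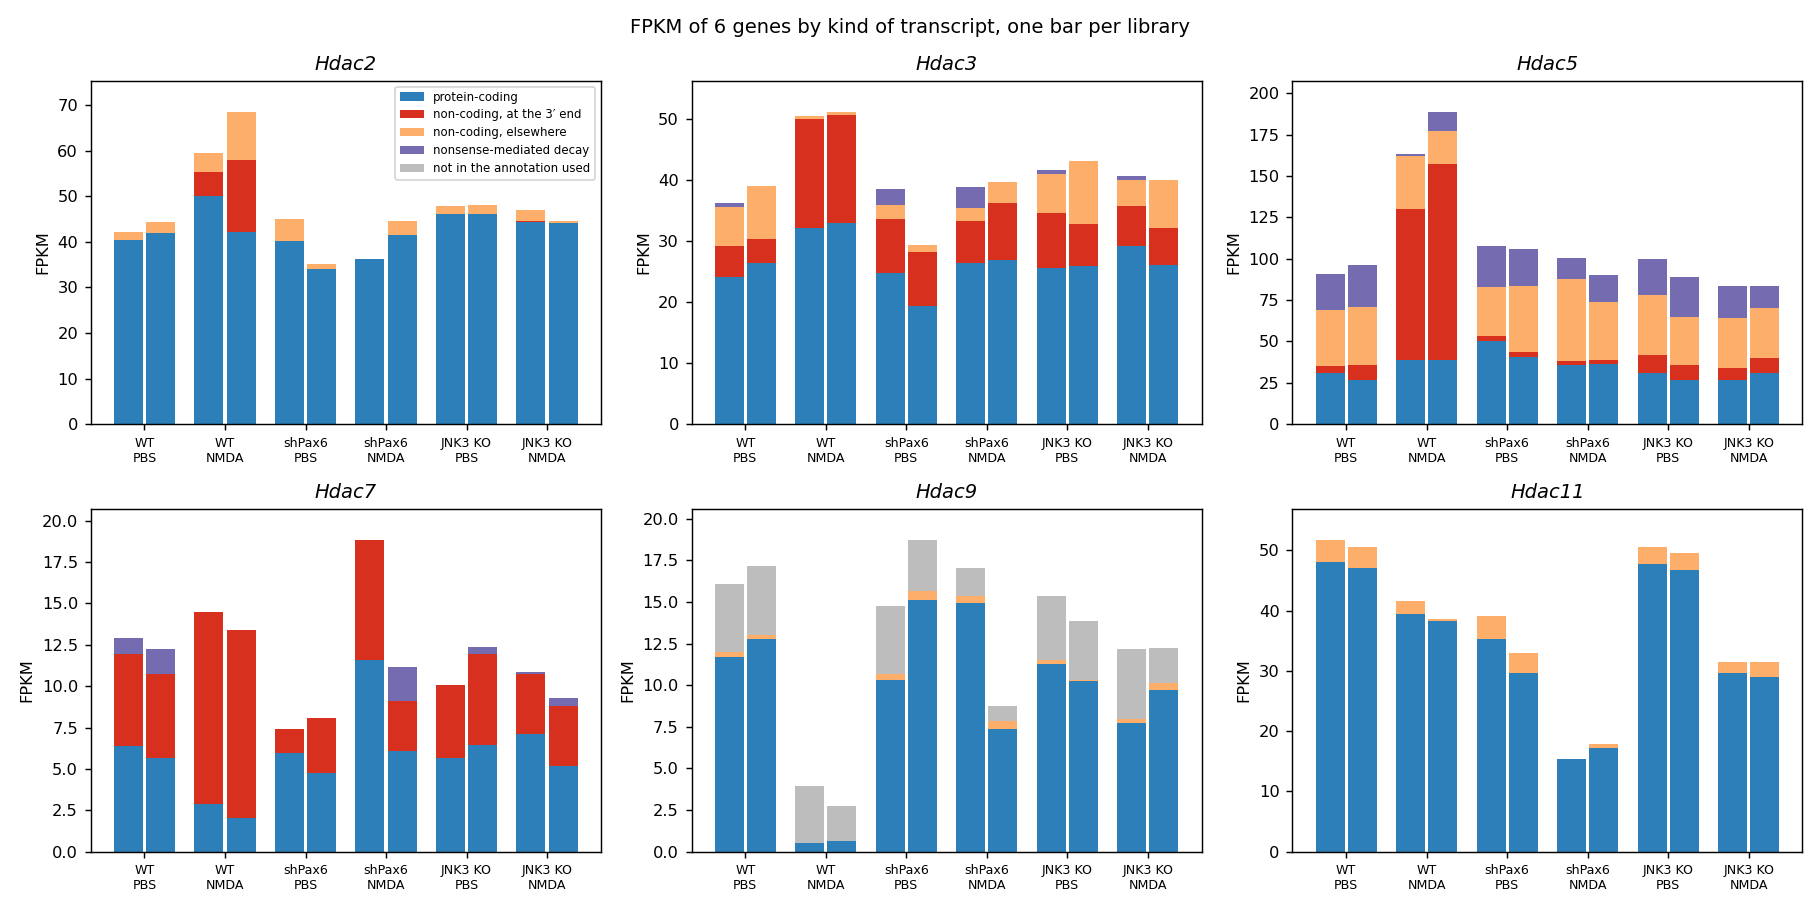
FPKM (y axis, linear from 0) of Hdac2, Hdac3, Hdac5, Hdac7, Hdac9 and Hdac11 in each library (1 bar for each), stacked by kind of transcript. Non-coding transcripts at the 3′ end (red) make up 91.6 and 118 FPKM of Hdac5 in WT NMDA, and the protein-coding part (blue) of Hdac9 is 0.50 and 0.66 FPKM there.

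Summed over protein-coding transcripts alone, an alternative chosen after the data were seen, the WT response read differently for some genes. Hdac5 rose by less (0.43, SE 0.13, adjusted p = 0.0136), Hdac3 rose (0.37, adjusted p = 0.0173), Hdac1 rose (0.29, adjusted p = 0.00786) and Hdac2 was not called (0.16, adjusted p = 0.215). Hdac7 fell (-1.27, SE 0.30, adjusted p = 0.00461), with Hdac9 (-4.19, SE 0.31, adjusted p = 2.49e-06), Hdac4 (-0.89) and Hdac11 (-0.29, adjusted p = 0.0168). That is 3 higher and 4 lower of 10, beside 26.5% higher and 40.6% lower of all 13456 genes with such sums. The Hdac9 sum leaves out transcripts that are not in the annotation used, whose coding status is not known here. They averaged 4.11 FPKM in WT PBS and 2.755 FPKM in WT NMDA, against 12.2 and 0.58 FPKM for those annotated as protein-coding. In shPax6 retinas Hdac1 rose and Hdac11 fell (background 19.7% and 13.2%), and in JNK3 KO retinas Hdac11 fell (background 6.39% and 7.36%).

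This pattern was not particular to these genes. Non-coding transcripts at the 3′ end took 5.23% and 5.57% of the summed FPKM in WT NMDA and 2.02% to 2.76% in the other 10 libraries. NMDA in WT and any other trait of the WT NMDA libraries cannot be told apart here. The RNA integrity of the libraries was not tested. Over all 2705 tested transcripts of this kind, the median WT log2 fold change was 1.27, while it was -1.50 for 12194 non-coding transcripts elsewhere and -0.50 for 28245 protein-coding ones. Of 58 tested transcripts of the 10 genes, 5 rose and 16 fell in WT, against 11.7% and 23.5% of all 49940. In shPax6 retinas 1 rose (Hdac1-201) and 2 fell (Hdac6-201 and Hdac11-201), against 4.71% and 3.63%, and in JNK3 KO retinas 0 rose and 1 fell (Hdac11-201), against 0.537% and 0.775%. The deposited transcript values are model-based splits of reads that transcripts of a gene share, so a value of 0 can be a failed estimate.

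Gene length moved with the WT response too. The spliced length of a gene was the mean over its transcripts, weighted by their FPKM in the 12 libraries. The median log2 fold change of all genes in WT was 1.03 under 1 kb of spliced length, 0.52 at 1 to 2 kb, -0.32 at 2 to 4 kb and -1.17 over 4 kb. Hdac4, at 5.69 kb, lay close to its bin with -1.05, as did Hdac2 (1.93 kb, 0.56), Hdac3 (1.93 kb, 0.43), Hdac6 (3.28 kb, -0.31) and Hdac11 (2.52 kb, -0.35). Hdac5 lay above the median of its bin by 1.23 (2.28 kb) and Hdac7 by 0.47, whereas Hdac9 (3.70 kb) differed from its bin by -1.98, Hdac8 by -0.93 and Hdac1 by -0.39. After the length correction Hdac5 stood at 0.95 and Hdac9 at -1.62, both called. The length used for Hdac5 drew on its short 3′ transcripts that rose in WT NMDA (1008 and 754 bases, against 3788 for Hdac5-204). Its corrected value is thus not independent of its response. The part of the length trend in the other values was not tested beyond that correction.

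**Figure D4:**
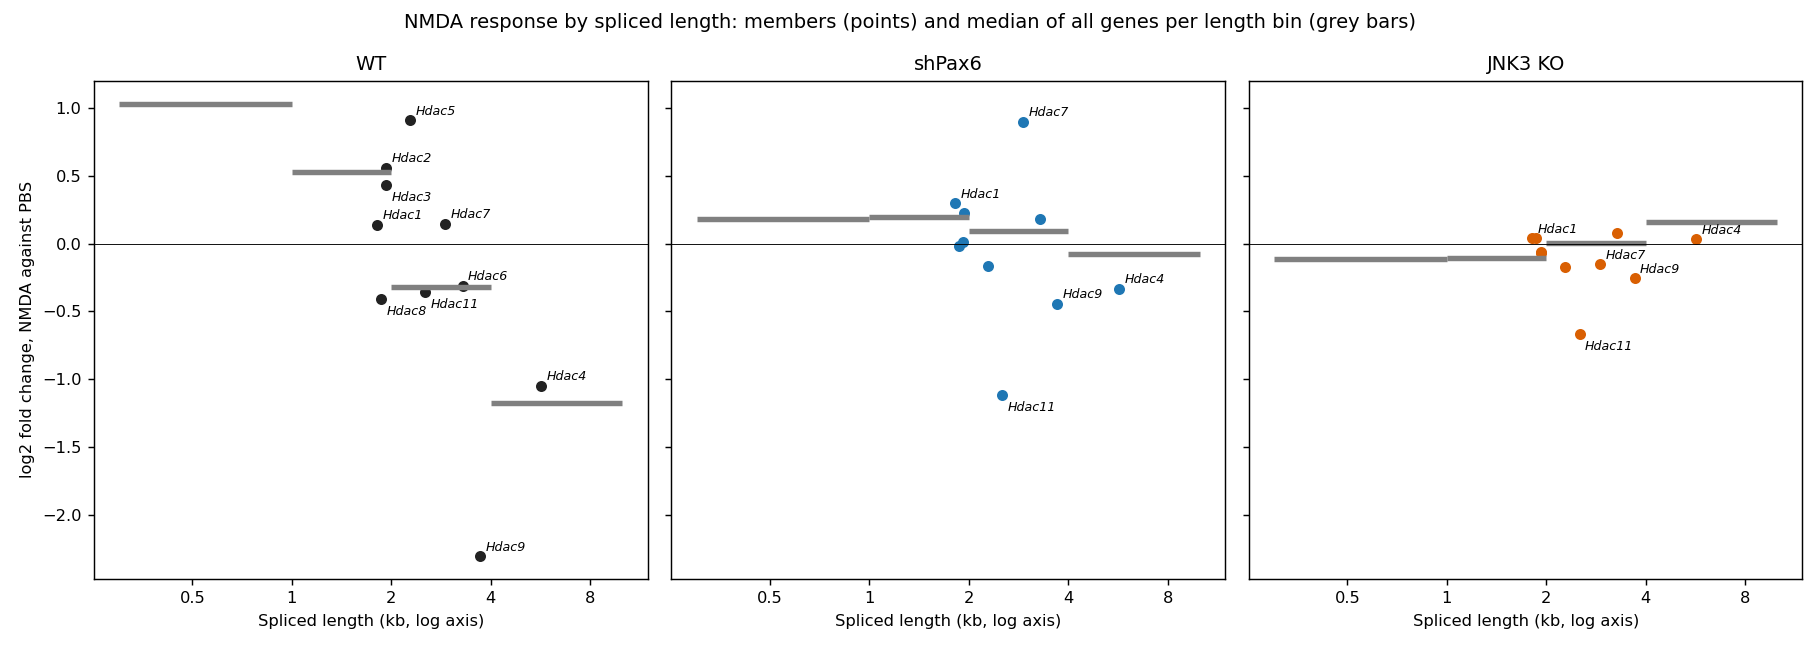
Log2 fold change of NMDA against PBS (y axis) against spliced length in kb (x axis, log scale) for the 10 genes, in 1 panel per genotype, with grey bars at the median of all genes in each length bin (names are given for all genes in WT and for 5 in the other panels). In WT the bars descend from 1.03 under 1 kb to -1.17 over 4 kb, with Hdac5 farthest above and Hdac9 farthest below the median of its bin.

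Across 5 ways of scaling or summing, Hdac5 and Hdac9 kept direction and call in WT. The median of all genes in WT was -0.09 as deposited and -0.66 on TPM, and 43.5% of called genes were higher as deposited, 21.4% on TPM and 51.9% after length correction, so directions of small changes are relative to the scale. Relative to the TPM median, Hdac2 and Hdac3 lay above it at -0.01 and -0.14, and Hdac1 (-0.43) did so too.

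**Figure D5:**
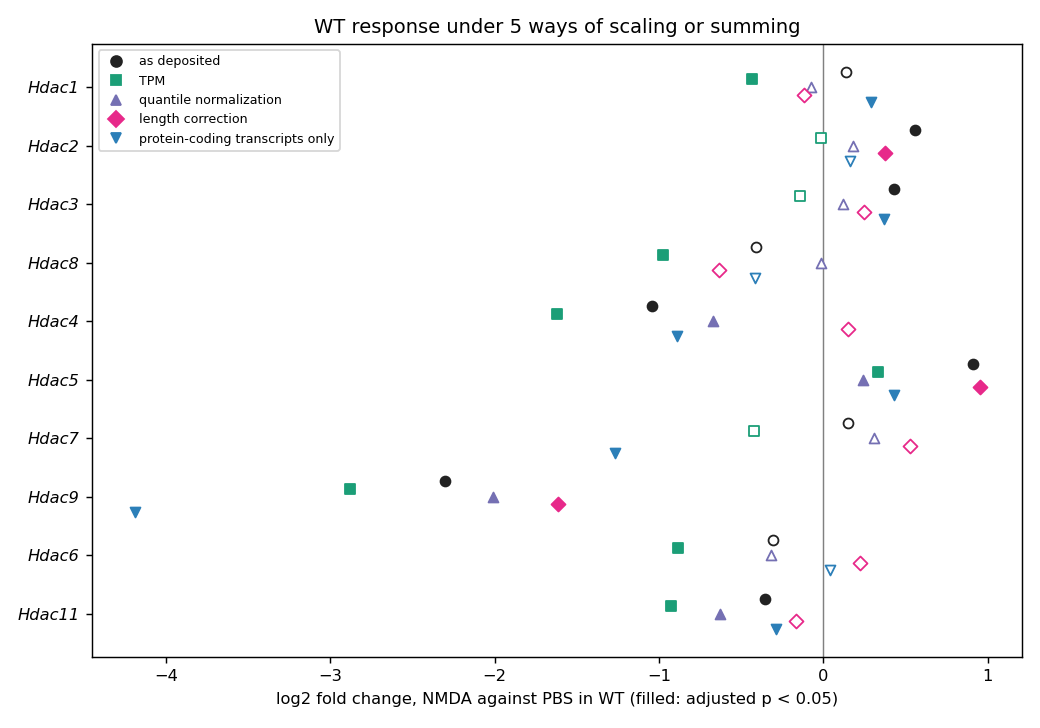
WT log2 fold change (x axis) of each gene (y axis) on the deposited FPKM, on TPM, after quantile normalization, after a length correction and from protein-coding transcripts alone, filled where the adjusted p was under 0.05. Hdac5 lies right of 0 and Hdac9 left of 0 under all 5, whereas Hdac1, Hdac2, Hdac3, Hdac4, Hdac6 and Hdac7 change sign under at least 1.

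In shPax6 retinas the NMDA response was another one. Hdac11 fell from 39.1 and 33.0 to 15.4 and 17.9 FPKM, to 0.463 of the PBS level (-1.11, SE 0.10, adjusted p = 5.20e-05), and stayed between -1.30 and -0.99 in all alternatives. The 2 shPax6 NMDA libraries were the lowest of the 12 for this gene. Hdac1 rose from 30.6 and 36.4 to 40.2 and 41.8 FPKM (0.30, SE 0.08, adjusted p = 0.0265), and Hdac7, known for its role in endothelium, from 7.39 and 8.07 to 18.8 and 11.1 FPKM (0.90, SE 0.22, adjusted p = 0.0143). The call of Hdac7 was lost without shPax6 NMDA replicate 1 (0.52, adjusted p = 0.0524) or shPax6 PBS replicate 1 (0.84, adjusted p = 0.073), and that of Hdac1 without shPax6 PBS replicate 1 (0.17, adjusted p = 0.115) or shPax6 NMDA replicate 2 (0.27, adjusted p = 0.0769). Neither was called with the spread taken from these 2 groups alone. Hdac1 was also not called on TPM (0.25, adjusted p = 0.0675), after quantile normalization (0.18), after the length correction (0.11) or without the intensity trend.

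The other 7 genes did not pass in shPax6 retinas. Hdac5 went from 108 and 106 to 100.5 and 90.2 FPKM (-0.16, 95% interval -0.36 to 0.03). Hdac9 went from 14.8 and 18.7 to 17.1 and 8.74 FPKM (-0.44, interval -1.09 to 0.21), and its 2 NMDA libraries disagreed, since it fell without shPax6 NMDA replicate 1 (-0.92, adjusted p = 0.0277) and stood at 0.04 without replicate 2. Thus 2 of 10 rose and 1 fell, against 19.1% and 11% of all genes (63.4% of called genes were higher, 44.0% after quantile normalization and 47.4% after the length correction), and 1 passed the unadjusted p with the fold limit, against 15.2%. The libraries of this genotype were the most scattered, with a median absolute log2 difference between replicates of 0.22 under PBS and 0.25 under NMDA over all genes. Endothelial markers summed to 50.7 and 51.5 FPKM under PBS and 74.3 and 84.4 FPKM under NMDA (4 of 7 rose), and microglia and macrophage markers to 132 and 143, then 440 and 458 FPKM (5 of 9 rose). In the same comparison 6 of 8 neutrophil and 4 of 7 Müller glia markers rose, and 1 Müller glia marker fell. Of 4 tested lens markers 2 rose and 1 fell. Among rod (7 of 8), RGC (8 of 10) and tested RPE (3 of 5) markers, those called all fell. The part of any of these cells in the values of Hdac7 was not tested.

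In JNK3 KO retinas Hdac11 was the one gene that changed. It fell from 50.6 and 49.5 to 31.5 and 31.5 FPKM, to 0.63 of the PBS level (-0.67, SE 0.10, adjusted p = 0.00383), and stayed called in every alternative with values from -0.68 to -0.65. Hdac5 went from 99.5 and 88.9 to 83.3 and 83.4 FPKM (-0.17, interval -0.37 to 0.02), and Hdac9 from 15.4 and 13.9 to 12.2 and 12.3 FPKM (-0.25, interval -0.90 to 0.40). The remaining genes lay between -0.15 and 0.08. Of all genes 4.33% rose and 6.1% fell, and 4.18% passed the unadjusted p with the fold limit, which 0 of the 10 did.

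Hdac11 was thus called in all 3 genotypes, and the values stand on separate PBS controls. RGC markers, those of retinal ganglion cells, moved in the same libraries. Their sum went from 571 and 590 to 312 and 330 FPKM in WT, from 179 and 183 to 60.7 and 68.1 FPKM in shPax6, and from 536 and 580 to 152 and 154 FPKM in JNK3 KO retinas, and 9, 8 and 6 of 10 markers fell. Other marker lists moved there too. Of 8 rod markers 0 rose and 7 fell in shPax6 (33536 and 36273 to 21270 and 21612 FPKM in sum) and 0 rose and 6 fell in JNK3 KO retinas (26163 and 26830 to 22191 and 22289 FPKM). Of 8 neutrophil markers 6 rose and 0 fell in shPax6 (8.39 and 9.98 to 71.1 and 81.7 FPKM), and 0 rose and 5 fell in JNK3 KO retinas (171 and 184 to 17.5 and 18.1 FPKM). Pou4f2 and Pou4f3 were at 0 in shPax6 NMDA replicate 2 and above 0 in the other 11 libraries. The part of any of these cells in the fall of Hdac11 was not tested. Most of the Hdac11 level came from the coding Hdac11-201, which fell in shPax6 (-1.08, adjusted p = 0.00169) and JNK3 KO (-0.68, adjusted p = 0.0447) retinas and did not pass in WT (-0.28, adjusted p = 0.11). The call in JNK3 KO retinas was lost in 6 of 8 other settings and whichever of the 4 libraries was left out.

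Under PBS the genotypes differed little in these genes. Hdac11 was lower in shPax6 than in WT (39.1 and 33.0 against 51.7 and 50.6 FPKM), a log2 fold change of -0.51 (SE 0.10, adjusted p = 0.00837), and lost its call without WT PBS replicate 1 (-0.49, adjusted p = 0.0633) or replicate 2 (-0.52, adjusted p = 0.0523). The RGC marker sum was 179 and 183 in shPax6 against 571 and 590 FPKM in WT (6 of 10 markers lower). All 8 rod markers were higher in shPax6 (33536 and 36273 against 25365 and 25476 FPKM in sum), and 7 of 8 neutrophil markers were lower (8.39 and 9.98 against 229 and 253 FPKM). The part of these cells was not tested. By protein-coding transcripts alone Hdac5 was also called, higher in shPax6 (50.1 and 40.5 against 31.0 and 26.4 FPKM, 0.65, SE 0.13, adjusted p = 0.0066). Hdac7 (-0.70, adjusted p = 0.0641) and Hdac6 (-0.44, adjusted p = 0.0521) missed the threshold. That is 0 higher and 1 lower of 10, against 5.36% and 11.2% of all genes. Of all called genes 32.4% were higher, and 42.5% after quantile normalization and 46.7% after the length correction. Between JNK3 KO and WT PBS retinas, 0 of 10 were called by limma (and 0 had an unadjusted p under 0.05), with values from -0.23 to 0.18, against 1.1% and 0.407% of all genes. Of those called 73.1% were higher, and 56.6% on TPM and 32.1% after quantile normalization.

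The difference between responses was tested directly. WT minus shPax6, Hdac5 (1.07, SE 0.12, adjusted p = 0.000115), Hdac11 (0.76, adjusted p = 0.00183) and Hdac2 (0.54, adjusted p = 0.0381) differed upward and Hdac9 (-1.86, SE 0.41, adjusted p = 0.00455) and Hdac4 (-0.71, adjusted p = 0.0434) downward, against 18.3% and 31.4% of all genes. For Hdac11 the upward difference is a smaller fall in WT (-0.35) than in shPax6 retinas (-1.11). WT minus JNK3 KO, Hdac5 (1.08, SE 0.12, adjusted p = 7.60e-05), Hdac2 (0.63, adjusted p = 0.0201) and Hdac3 (0.50, adjusted p = 0.0239) differed upward and Hdac9 (-2.05, SE 0.41, adjusted p = 0.00237) and Hdac4 (-1.08, adjusted p = 0.00628) downward, against 23.5% and 27.9%. Both share the WT libraries. Of all called genes 36.8% were upward in the first difference (16.3% on TPM, 53.5% after the length correction) and 45.7% in the second (23.2% on TPM). Hdac4 turned to 0.42 and 0.29 after the length correction and Hdac3 to -0.09 in the second on TPM. Hdac5 and Hdac9 stayed called in each of the 8 libraries left out from either difference. In other settings, Hdac9 lost its call in the first difference after the length correction (-1.11, adjusted p = 0.0582), Hdac11 in the first on TPM (0.24, adjusted p = 0.176) and Hdac5 in the second from protein-coding transcripts alone (0.42, adjusted p = 0.0717). Between shPax6 and JNK3 KO only Hdac7 differed (1.05, SE 0.31, adjusted p = 0.0491), against 12.1% higher and 5.62% lower of all genes (68.2% of calls higher, 43.2% after quantile normalization and 55.5% after the length correction), and it stayed called in 1 of 8 left-out libraries.

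Partners of these enzymes are given by lists. Their counts stand beside the shares of all genes that rose and fell. These were 26% and 33.8% in WT, 19.1% and 11% in shPax6, and 4.33% and 6.1% in JNK3 KO retinas. Of the class IIa partners (the MEF2 factors and the 14-3-3 proteins, which hold phosphorylated class IIa enzymes in the cytoplasm) 0 of 10 rose and 8 fell in WT. Their median was -0.66 and lay between -1.23 and -0.28 on TPM, after quantile normalization and after the length correction. Mef2c fell from 21.8 and 17.4 to 5.59 and 5.67 FPKM (-1.77, adjusted p = 4.09e-06). In shPax6 retinas 1 rose and 4 fell, and in JNK3 KO retinas 2 rose and 1 fell. Of the 14 kinases that phosphorylate class IIa enzymes 2 rose and 9 fell in WT (median -0.78), but 4 rose and 6 fell after the length correction (median -0.03). In shPax6 retinas 4 rose and 4 fell, and in JNK3 KO retinas 2 and 2. The shPax6 numbers were 3 and 4 on TPM, 1 and 5 after quantile normalization and 2 and 5 after the length correction. The JNK3 KO numbers were 2 and 1, 1 and 1, and 0 and 3 in the same order. Camk1 rose from 17.5 and 16.6 to 31.4 and 32.8 FPKM (0.91, adjusted p = 5.95e-05), and Camk2a, a calcium-dependent kinase abundant in neurons, fell from 11.4 and 12.2 to 2.69 and 1.72 FPKM (-2.40, adjusted p = 1.82e-05).

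The subunits of the class I corepressor complexes moved in both directions in WT. Of 9 Sin3 genes 6 rose and 2 fell (median 0.97, and 0.40 to 0.52 under the other scalings), with the metastasis suppressor Brms1 at 1.75 (15.4 and 14.8 to 51.7 and 50.4 FPKM, adjusted p = 7.95e-06) and the scaffold Sin3a at -0.44 (adjusted p = 0.0263), which turned to 0.52 after the length correction. Of 11 NuRD genes 1 rose and 5 fell (median -0.11), but 1 rose and 9 fell on TPM and 4 rose and 2 fell after the length correction (median 0.20), with Mbd3, a methyl-CpG-binding domain protein, from 37.3 and 39.9 to 108 and 114 FPKM (1.52, adjusted p = 1.21e-07) and Gatad2b at -1.43, or -0.11 and uncalled after the length correction. Of 9 CoREST genes 1 rose and 6 fell (median -1.04), with Hmg20b at 1.64 and the zinc finger protein Zmym2 at -1.82, both called under each scaling. Of 5 NCoR/SMRT genes 1 rose and 4 fell (median -1.45), with Gps2 at 1.29, uncalled after the length correction, and Ncor1, the scaffold that binds Hdac3, from 82.1 and 75.1 to 30.1 and 21.9 FPKM (-1.61, adjusted p = 8.18e-06). After the length correction the CoREST list had 1 higher and 3 lower and the NCoR/SMRT list 0 higher and 2 lower.

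In the other genotypes these complexes had fewer calls, as did all genes (19.1% higher and 11% lower in shPax6, 4.33% and 6.1% in JNK3 KO). The numbers of higher and lower genes in shPax6 were 1 and 1 for Sin3, 3 and 1 for NuRD, and 1 and 0 for CoREST. They were 1 and 1 for NCoR/SMRT, where Ncor1 was lower (-0.42, adjusted p = 0.0438). The NuRD numbers were 1 and 1 on TPM, after quantile normalization and after the length correction. In JNK3 KO retinas 1 NuRD gene was lower and no other gene of the 4 lists was called. Mef2c was also lower in shPax6 (-0.81, adjusted p = 0.00197) and not called in JNK3 KO retinas (0.17, adjusted p = 0.496), and Camk2a fell in shPax6 (-2.36) and JNK3 KO (-1.41, adjusted p = 0.00609).

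Of 10 lysine acetyltransferases, the enzymes that add what deacetylases remove, 4 rose and 6 fell in WT (median -0.85), but 0 rose and 6 fell on TPM and 2 rose and 3 fell after the length correction (median -0.05). Ep300, a coactivator that acetylates histones, fell from 28.9 and 27.8 to 4.46 and 5.48 FPKM (-2.50, adjusted p = 7.75e-06), and Kat5 rose by 0.57, or stood at -0.00 on TPM. Of 7 sirtuins, the NAD-dependent deacetylases, 3 rose and 1 fell (median 0.42), but 0 rose and 3 fell on TPM (median -0.15) and 1 rose and 4 fell after the length correction (median -0.43). Sirt7 was at 0.61, or 0.04 on TPM and uncalled there, and Sirt1, the best known of them, at -1.58 (adjusted p = 2.43e-05). In shPax6 retinas 1 of 10 acetyltransferases and 1 of 7 sirtuins rose, and in JNK3 KO retinas 1 and 0 did, and 0 fell in either list. On the other scalings 0 sirtuins rose in shPax6, while 0 fell on TPM, 1 after quantile normalization and 2 after the length correction. After the length correction 1 acetyltransferase also fell in shPax6, and 0 rose in JNK3 KO retinas.

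Among genes other than the 10, those whose levels ran closest to the 3 most variable members over the 12 libraries were, for Hdac9, Dennd11 (Pearson's r 0.99) and Rab3gap1 (0.98), for Hdac11, Diras1 and Cend1 (0.99 each), and for Hdac5, Grcc10 (0.99) and Ypel3 (0.98). These coefficients describe 12 points in 6 groups of 2, of which the WT NMDA pair is far from the rest for Hdac5 and Hdac9. Within the 10 the closest pair was Hdac2 with Hdac3 (0.90) and the most opposed was Hdac2 with Hdac9 (-0.88). The WT NMDA libraries lay above all others for Hdac2 and Hdac3 and below all others for Hdac9. How far these coefficients rest on those libraries was not tested.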

How the data were processed

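Bulk RNA-seq was compared in 12 mouse retina libraries, 2 in each of 6 groups, from an oligo-dT-primed TruSeq mRNA protocol. The values are FPKM per gene and per transcript as deposited by the authors, whose processing notes name STAR 2.7.1a, GRCm38.p6, RSEM 1.3.3, edgeR 3.36.0 and R 4.1.0. Read totals cannot be taken from FPKM, so depth is unknown. A fragment is counted against transcript length, and reads that transcripts share are split by a model, which limits the transcript values. The authors' own comparison columns were not used, and columns belonging to no sample numbered 0. The study's methods use counts in edgeR, which FPKM does not allow, so limma 3.58.1 (R 4.3.3) was fitted to log2(FPKM + 0.1) with 1 mean per group (6 residual degrees of freedom) and an intensity trend. Genes (16471) and transcripts (49940) whose mean exceeded 1 FPKM in any group were tested in 8 comparisons, with Benjamini-Hochberg adjustment over all of them and calls at an adjusted p under 0.05. The fits were tested on simulated data.

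The 10 genes and all lists were chosen with earlier results of these data known. Named were the 10 genes, Pax6 and Mapk10, of each partner list the called gene with the largest rise and the largest fall in WT and a mean above 1 FPKM in both groups, the 2 most correlated genes of the 3 members with the widest range of group means, and member transcripts above 1 FPKM in some group; markers at 0 or under 1 FPKM were named after their values were seen. Transcript kinds came from GENCODE M21, which held 99.07% of transcripts and 94 of 96 of these genes, and promoters from RefSeq on GRCm38.p6. Alternatives in 8 settings, leaving out each library, protein-coding transcripts alone and other scalings of the lists (the last 2 added after seeing the data) were run. Deviations of same-numbered replicates correlated between -0.10 and 0.09, so the numbers were not used as pairs. Python 3.11.15 with pandas 2.3.3, numpy 2.4.6 and matplotlib 3.10.9 was used for tables and figures.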

Additional observations from a re-analysis of the deposited data

Results flagged for a closer look

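These values were singled out because the response to NMDA itself differed between 2 genotypes by limma's contrast of the responses (adjusted p under 0.05 over 16471 genes). A positive difference can be a smaller fall, as for Hdac11 below (-0.35 in WT and -1.11 in shPax6 retinas). In WT minus shPax6, Hdac5 differed by 1.07 (adjusted p = 0.000115), Hdac9 by -1.86 (0.00455) and Hdac11 by 0.76 (0.00183) on the log2 scale, and these 3 kept their calls whichever of the 8 libraries was left out, although Hdac9 was not called after the length correction (-1.11, adjusted p = 0.0582) nor Hdac11 on TPM (0.24, adjusted p = 0.176). Hdac2 differed by 0.54 (adjusted p = 0.0381) and Hdac4 by -0.71 (0.0434), and they kept their calls in 3 and 1 of those 8 fits. In WT minus JNK3 KO, Hdac5 differed by 1.08 (adjusted p = 7.60e-05), Hdac9 by -2.05 (0.00237) and Hdac4 by -1.08 (0.00628), with calls in all 8 fits, although Hdac4 turned to 0.29 after the length correction and Hdac5 was not called from protein-coding transcripts alone (0.42, adjusted p = 0.0717). Hdac2 differed by 0.63 (adjusted p = 0.0201) and Hdac3 by 0.50 (0.0239), with calls in 3 and 1 of 8. Between shPax6 and JNK3 KO, Hdac7 differed by 1.05 (adjusted p = 0.0491), with a call in 1 of 8. The first 2 contrasts share the WT libraries, whose NMDA pair stood apart in FPKM sum and in the length trend, and the part of that in these values was not tested beyond the scalings reported.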

How the results depend on the processing

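Values are log2 fold changes or response differences unless called a number of genes or transcripts. Of 985 other values computed, 772 kept direction and side of the threshold. On TPM the WT response reversed for Hdac1 (-0.43), Hdac2 (-0.0134), Hdac3 (-0.14) and Hdac7 (-0.42), the shPax6 response for Hdac2 (-0.0352), WT minus shPax6 for Hdac3 (-0.32), and WT minus JNK3 KO for Hdac1 (-0.49), Hdac3 (-0.0928), Hdac7 (-0.29) and Hdac11 (-0.28), and 2 genes were called between shPax6 and WT PBS. After quantile normalization Hdac1 reversed in WT (-0.0757), Hdac2 in shPax6 (-0.11), Hdac8 in WT minus shPax6 (0.19) and Hdac1 in WT minus JNK3 KO (-0.16). The called numbers were then 13 transcripts in WT, 0 in JNK3 KO, and 3 and 2 genes in those differences. Of all genes 7001 and 7902 were then called in those differences, against 8179 and 8472 as deposited. The length correction reversed Hdac1 (-0.12), Hdac4 (0.15) and Hdac6 (0.22) in WT, Hdac2 in shPax6 (-0.16), Hdac4 in JNK3 KO (-0.14), Hdac4 (0.42) and Hdac6 (0.13) in WT minus shPax6, Hdac1 (-0.23), Hdac4 (0.29) and Hdac6 (0.18) in WT minus JNK3 KO, and Hdac1 in shPax6 minus JNK3 KO (-0.00584). It left 3 genes called in WT, 3 in each difference from WT and 0 transcripts in JNK3 KO. Of all genes it left 7552 called in WT, 5950 in WT minus shPax6 and 5615 in WT minus JNK3 KO. As deposited these were 9855, 8179 and 8472. Between shPax6 and WT PBS, 2760 of all genes were called on TPM, against 2724 as deposited.

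With the spread from the groups compared alone, 1 gene and 0 transcripts were called in shPax6 and 0 transcripts in JNK3 KO. The called genes were 0 between shPax6 and WT PBS, 3 in WT minus shPax6 and 0 in shPax6 minus JNK3 KO. Of all genes 976 were then called in shPax6, 887 between shPax6 and WT PBS, and 6899 and 2170 in these differences. With the shared spread these were 4967, 2724, 8179 and 2913. Without the filter 0 transcripts were called in JNK3 KO, 3 genes in WT minus shPax6 and 0 in shPax6 minus JNK3 KO. Without the intensity trend 0 transcripts were called in JNK3 KO and 0 genes in shPax6 minus JNK3 KO. Of all genes 7845 and 2480 were called in these differences without the filter. Without the trend 2451 were called in shPax6 minus JNK3 KO. The replicate block gave 0 transcripts in JNK3 KO, 3 genes in WT minus shPax6 and 0 in shPax6 minus JNK3 KO. Of all genes it called 8010 and 2730 in these differences. The replicate numbers share no more than a name. Protein-coding transcripts alone, chosen after seeing the data, reversed Hdac7 (-1.27) and Hdac6 (0.0424) in WT, Hdac1 (-0.10), Hdac3 (0.10), Hdac4 (-0.14), Hdac5 (0.0116) and Hdac7 (0.00079) in JNK3 KO, and Hdac7 in WT minus JNK3 KO (-1.27), with 2 genes called between shPax6 and WT PBS. Between shPax6 and WT PBS, 2690 of 13456 genes were called by protein-coding transcripts alone, against 2724 of 16471 over all transcripts. The cause of these changes was not tested.

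Leaving out each library in turn gave 12 to 20 called transcripts in WT, 3 to 10 in shPax6 and 0 in JNK3 KO. The called genes numbered 0 to 2 between shPax6 and WT PBS, 3 to 7 in WT minus shPax6, 3 to 5 in WT minus JNK3 KO and 0 to 2 in shPax6 minus JNK3 KO. Values that crossed 0 were those of Hdac2 (-0.16 to 0.19), Hdac8 (-0.52 to 0.48) and Hdac9 (-0.92 to 0.0375) in shPax6, Hdac8 (-0.13 to 0.21), Hdac4 (-0.20 to 0.26), Hdac7 (-0.30 to 2.11e-06) and Hdac6 (-0.000501 to 0.16) in JNK3 KO, Hdac3 between shPax6 and WT PBS (-0.36 to 0.0318) and Hdac8 in WT minus shPax6 (-0.89 to 0.11). The number of all genes called also moved between these fits, so the counts of calls above do not describe these genes alone. Where an arm kept 1 library, it was assumed to vary like the other groups. With 2 libraries a group and no read counts, small differences could not be told from the spread.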
